A study of Homo sapiens with 6 samples.

Results

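The collagen chain genes encode the polypeptides that assemble, 3 at a time, into the collagens of the extracellular matrix. A gene was taken as a member when its symbol consisted of COL, a type number, A and a chain number with nothing after it, and COL17A1 was left out. This gave 43 of the 50868 genes that had values. Expression was measured by RNA sequencing in 6 libraries from UM-UC-3 and 5637, a pair of established human bladder cancer cell lines. Each line carried a lentiviral hairpin under puromycin selection, and in either line the hairpin was a negative control (sh-NC) or 1 of 2 short hairpin RNAs against the long noncoding RNA LNMAT1 (sh-LNMAT1#1 and sh-LNMAT1#2). There was 1 library per construct and line, and the lines were grown in different media (DMEM for UM-UC-3, RPMI for 5637). The cells were grown without stroma, and untransduced cells were not analysed here. Values are FPKM, fragments scaled to gene length and sequencing depth.

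Collagen chains wind into a triple helix with glycine at regular steps. Proline and lysine hydroxylation and the chaperone HSP47 act on the chains in the endoplasmic reticulum, and proteinases and lysyl oxidases act after secretion. Type IV forms the network of basement membranes, and type VII anchors the basement membrane of stratified epithelia to the stroma. Types I, III and V make fibrils, which the fibril-associated collagens (FACITs, such as type XII) decorate. Type VI makes beaded filaments. In bladder tissue fibroblasts are the main source of fibrillar collagen, while urothelial cells sit on a type IV basement membrane.

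Each type IV chain gene lies head to head with a second one, and such pairs are shown first because their partners are compared below. By the RefSeq starts on GRCh38.p14, 126 bases lie between COL4A1 on the minus strand and COL4A2 on the plus strand of chromosome 13. The starts of COL4A6 and COL4A5 on chromosome X are 379 bases apart, and those of COL4A4 and COL4A3 on chromosome 2 are 418 bases apart. COL4A6 has a further RefSeq start, at chrX:108438422, and the start nearer COL4A5 is used here. The first sequence below is the whole stretch between COL4A1 and COL4A2. The others are the 150 bases before the starts of the second pair and of COL7A1, COL12A1, COL6A2 and COL23A1. The last of these were picked among members with large differences between the lines, and COL9A2, which differed at least as much as COL23A1, is not printed. Some gene rows that hold the FPKM begin before these RefSeq starts. The stretches before COL4A2 and COL23A1 lie inside the rows of those genes, and the stretches before COL4A6 and COL6A2 overlap theirs in part. The sequences are from RefSeq, 5′ to 3′ on the strand stated, and capitals mark the GC box (GGGCGG), the CCAAT box and the TATA box (TATAAA) on either strand. The AP-1 pattern (TGANTCA), which reads alike on both strands, was also searched and is in none of those printed.
COL4A1 to COL4A2, chr13:110307158-110307283, plus strand: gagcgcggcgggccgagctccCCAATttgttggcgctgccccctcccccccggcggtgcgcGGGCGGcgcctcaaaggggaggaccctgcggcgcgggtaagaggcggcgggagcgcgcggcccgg
COL4A5, chrX:108439688-108439837, plus strand: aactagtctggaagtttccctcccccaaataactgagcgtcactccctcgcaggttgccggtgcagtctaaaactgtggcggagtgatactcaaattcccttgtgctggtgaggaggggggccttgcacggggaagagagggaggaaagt
COL4A6, chrX:108439459-108439608, minus strand: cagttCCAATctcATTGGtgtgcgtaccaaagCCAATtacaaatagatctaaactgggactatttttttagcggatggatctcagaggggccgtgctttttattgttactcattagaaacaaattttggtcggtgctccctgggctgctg
COL7A1, chr3:48595330-48595479, minus strand: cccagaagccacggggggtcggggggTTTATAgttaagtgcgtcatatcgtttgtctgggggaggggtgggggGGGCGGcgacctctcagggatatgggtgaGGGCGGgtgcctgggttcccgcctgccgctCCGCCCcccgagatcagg
COL12A1, chr6:75206054-75206203, minus strand: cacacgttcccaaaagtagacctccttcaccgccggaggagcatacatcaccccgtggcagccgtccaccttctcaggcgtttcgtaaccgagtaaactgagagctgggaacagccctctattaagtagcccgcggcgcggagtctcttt
COL6A2, chr21:46097962-46098111, plus strand: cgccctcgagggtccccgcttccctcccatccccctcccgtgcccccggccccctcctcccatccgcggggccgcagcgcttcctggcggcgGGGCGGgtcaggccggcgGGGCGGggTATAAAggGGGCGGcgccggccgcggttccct
COL23A1, chr5:178590394-178590543, minus strand: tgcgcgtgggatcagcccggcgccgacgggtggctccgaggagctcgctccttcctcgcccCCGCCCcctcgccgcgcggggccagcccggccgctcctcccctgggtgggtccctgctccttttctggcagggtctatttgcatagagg

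RefSeq windows of 300 bases, 250 before and 50 after a start, were found for 31 of the 43 members, with 43 windows in all. The GC box was in 55.8% of these windows and in 45.0% of the 35116 windows of all genes. The CCAAT box was in 30.2% of member windows and 34.6% of all, the TATA box in 16.3% and 11.5%, and the AP-1 pattern in 2.33% and 7.71%. The printed stretches ran from 43.3% G and C before COL4A6 to 80.7% before COL6A2, the latter holding the GC box 3 times. COL7A1 and COL12A1, the members with the largest difference between the lines below, shared no pattern in the printed 150 bases, although both whole windows held the GC box, 3 times and 2 times. In the printed bases COL7A1 held the GC box 3 times and the TATA box once, and COL12A1 held none of the 4. A match is a description of the letters only.

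Between 19374800 and 24706800 fragments were recovered per library from the steps in the FPKM of single-exon genes. LINC01296, the row that holds LNMAT1, measured 14.2 FPKM with sh-NC and 6.20 and 6.70 FPKM with the LNMAT1 hairpins in UM-UC-3, and 11.7, 4.70 and 2.14 FPKM in the same order under the label 5637. The library labelled 5637 sh-NC stood apart from the other libraries of its line: Pearson r across 12717 genes was 0.985 against UM-UC-3 sh-LNMAT1#1 but 0.617 and 0.622 against the other 5637 libraries. Within UM-UC-3, r was 0.923 between sh-LNMAT1#1 and sh-NC, 0.932 between the 2 LNMAT1 hairpins and 0.969 between sh-LNMAT1#2 and sh-NC. The library labelled 5637 sh-NC is called by its label throughout, and results that rest on it are also given without it. Of 11 epithelial marker genes, EPCAM was at least 33.8 FPKM in the 5637 sh-LNMAT1 libraries and at most 0.0210 FPKM in the other 4 libraries, and the uroplakin gene UPK1B was listed at 0 in all 6. The summed level of the 11 was 718.5 to 964 FPKM in the 5637 sh-LNMAT1 libraries and 22.0 to 31.4 FPKM in UM-UC-3. The summed level of 6 mesenchymal genes, most of it VIM in UM-UC-3, was 26.45 to 32.2 FPKM and 158.2 to 364.7 FPKM in the same order. Within that list SNAI2 went the other way, at 10.1 and 13.8 FPKM in the 5637 sh-LNMAT1 libraries and 0.539 to 1.98 FPKM in UM-UC-3, and TWIST1 was 4.17 and 2.26 FPKM against 1.29 to 1.81 FPKM. For 7 fibroblast markers the sums were 2.89 to 3.84 and 2.97 to 3.39 FPKM, THY1 being the highest of them in every library (1.37 to 3.34 FPKM), and the other 6 were under 1 FPKM in every library, DCN being listed at 0 in 5 of them. The 4 endothelial markers summed to at most 0.3025 FPKM. Of 4 leukocyte markers CD3E was listed at 0 throughout and PTPRC was at most 0.0108 FPKM, while CD68 was 13.0 to 29.2 FPKM in UM-UC-3 and 0.749 and 0.826 FPKM in the 5637 sh-LNMAT1 libraries. In the library labelled 5637 sh-NC the sums were 27.4 (epithelial), 140.8 (mesenchymal), 2.70 (fibroblast) and 31.1 FPKM (leukocyte). The epithelial and mesenchymal sums thus differed between the same libraries as the collagens below, and their part in those results was not tested.

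Summed over the 43 members, the level in UM-UC-3 was 39.0 FPKM with sh-NC, then 45.9 and 40.6 FPKM with hairpins #1 and #2, the order kept throughout. The library labelled 5637 sh-NC held 37.3 FPKM, whereas the sh-LNMAT1#1 and sh-LNMAT1#2 libraries of 5637 held 365 and 354 FPKM. The 5637 sh-LNMAT1 libraries were thus the only ones of the 6 with a high collagen total. Type IV chains held 54.9% and 35.4% of that total in them, and 30.5% to 36.9% in the UM-UC-3 libraries. The FACIT chains, in 5637 nearly all COL12A1, held 26.6% and 40.8% against 3.58% to 5.68%, and the type VI chains 0.587% and 0.742% against 20.9% to 27.3%. In UM-UC-3 the highest member was COL4A2 in sh-NC and COL6A2 with either hairpin, and in 5637 it was COL4A2 with sh-LNMAT1#1 and COL12A1 with sh-LNMAT1#2. Such shares and ranks compare FPKM between genes. Overlapping exons lower FPKM unevenly between genes, as described under processing, so these shares and ranks are approximate.

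**Figure D1:**
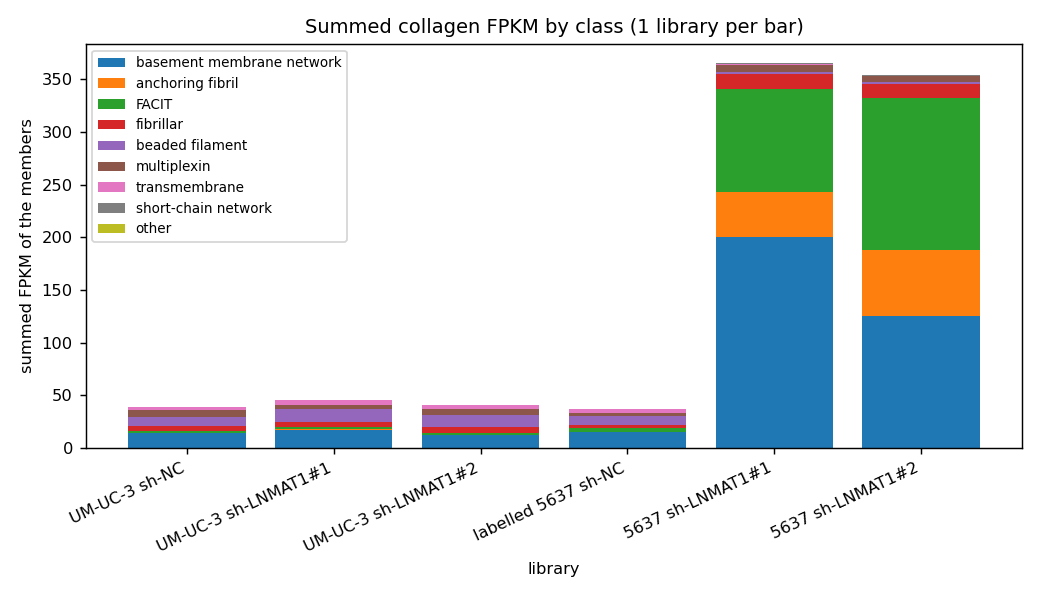
Summed FPKM of the 43 collagen chain genes (vertical axis) in each of the 6 libraries (horizontal axis), 1 bar per library and 1 color per collagen class, with no error bars because each bar is 1 library. The bars for 5637 with sh-LNMAT1#1 and sh-LNMAT1#2 reach 365 and 354 FPKM, and the other 4 lie between 37.3 and 45.9 FPKM.

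Only 14 of the 43 members had a mean of at least 1 FPKM over the 6 libraries, the level used as a filter below. Another member, COL13A1, a transmembrane collagen, ranged from 0.236 FPKM in UM-UC-3 sh-LNMAT1#2 to 1.64 FPKM in UM-UC-3 sh-LNMAT1#1 without reaching that mean. The other 28 were under 1 FPKM in every library, with a highest value of 0.682 FPKM, for COL5A2. COL9A1 was listed at 0 in all 6 libraries. Several of the chains that fibroblasts make in quantity were among the 28. COL1A2 rested on 0 to 5 fragments per library and COL3A1, the type III chain, on 0 to 2, so that neither could be compared at this depth. COL4A3 rested on 0 to 5 fragments, while its head-to-head partner COL4A4 had 55 in 5637 sh-LNMAT1#1, 10 in 5637 sh-LNMAT1#2 and 1 to 8 in the other 4 libraries. COL8A1, a network chain of endothelial basement membranes, had 42 and 22 fragments in the 5637 sh-LNMAT1 libraries and 0 to 3 elsewhere. COL8A2, its partner, was 0.648 and 0.306 FPKM in them and at most 0.0142 FPKM elsewhere.

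The other low members varied without a shared order. COL5A3, a minor type V chain, had 39, 8 and 71 fragments in UM-UC-3, 23 in the library labelled 5637 sh-NC, and 1 and 3 in the 5637 sh-LNMAT1 libraries. COL19A1, a FACIT, was highest in UM-UC-3 sh-LNMAT1#1, with 28 fragments, and in the library labelled 5637 sh-NC, with 21, where the other 4 libraries had 0 to 5. COL16A1, another FACIT, showed the reverse, with 5 and 9 fragments in those 2 libraries and 32 to 42 in the rest. COL11A2, a cartilage fibril chain, was the steadiest of these, with 29 to 67 fragments. COL25A1, a transmembrane collagen of neurons, was 0.166 and 0.126 FPKM in the 5637 sh-LNMAT1 libraries and at most 0.00407 FPKM in the others, and it passed between the lines without a filter, with a log2 difference of 0.36 (standard error 0.06, limma adjusted p = 0.03861).

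**Figure D2:**
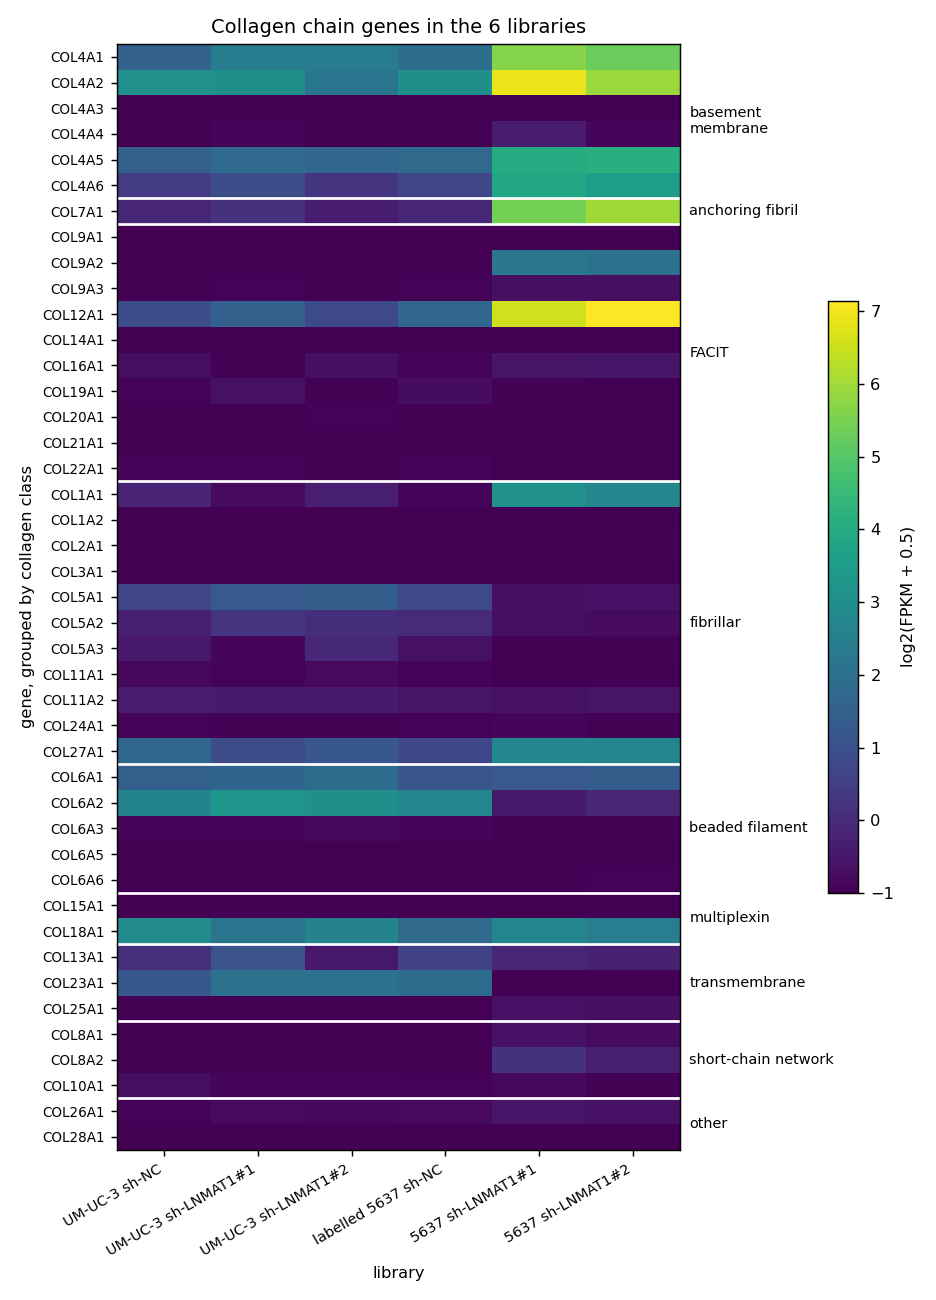
Level of all 43 collagen chain genes (rows, grouped by class) in the 6 libraries (columns), colored by log2(FPKM + 0.5). Of the 43 rows, 14 have a mean of at least 1 FPKM, and the column labelled 5637 sh-NC resembles the UM-UC-3 columns, with COL23A1 at 3.18 FPKM and COL7A1 at 0.425 FPKM.

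To compare the lines without either sh-NC library, the 2 sh-LNMAT1 libraries of 5637 were set against the 2 of UM-UC-3 with limma, on log2(FPKM + 0.5), with Benjamini-Hochberg adjustment over the 12844 genes tested. By this test 38.5% of all genes tested passed an adjusted p of 0.05, 20.1% higher in 5637 and 18.4% lower. Of the 14 members tested, 9 were higher in 5637, 3 were lower and 2 did not pass. The median log2 difference was 2.67 over these 14 and -0.02 over all genes tested, and 0.00 over the 42 members tested without a filter. Of the 14, 3 (COL7A1, COL9A2 and COL1A1) passed the filter only through 5637 and 3 (COL6A2, COL23A1 and COL5A1) only through UM-UC-3. These had therefore to differ, so the count is a description and their p-values below add no support. Of those 42, 11 were higher and 4 lower, where 14.8% of all genes passed. With both sh-NC libraries added to their labelled lines, 0 of 14 members passed, and 7 had an unadjusted limma p under 0.05. Over all 12717 genes tested there, 1 was higher and 1 lower, and 1728 had an unadjusted limma p under 0.05. Line and culture medium cannot be told apart. The p-values measure only the spread between the 2 hairpins of a line, with no repeat of a construct, and a lower level per cell cannot be told apart from fewer expressing cells.

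COL7A1, the chain of the anchoring fibrils, differed most. Its level was 0.422, 0.615 and 0.276 FPKM in UM-UC-3, 0.425 FPKM in the library labelled 5637 sh-NC, but 42.9 and 62.6 FPKM in the 5637 sh-LNMAT1 libraries. These last values rest on 11994 and 16272 fragments, and the other 4 on 85 to 184. The log2 difference was 5.81 (standard error 0.30, limma adjusted p = 0.0002285).

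COL12A1, a FACIT found along type I fibrils, followed. It was 1.42, 2.35 and 1.23 FPKM in UM-UC-3, 2.69 FPKM in the library labelled 5637 sh-NC, but 92.6 and 140.7 FPKM in the 5637 sh-LNMAT1 libraries. The groups did not overlap, and the log2 difference was 5.69 (standard error 0.34, limma adjusted p = 0.0003116). COL9A2, another FACIT chain and normally a cartilage gene, was 4.21 and 3.63 FPKM in the 5637 sh-LNMAT1 libraries, from 574 and 461 fragments. It had 0 to 3 fragments in each of the other 4 libraries, at or under a floor of 3 fragments, and was at least 176-fold higher in either 5637 sh-LNMAT1 library than that floor allows there. Bounds cover counting error only. Of its partners, COL9A1 was listed at 0 throughout and COL9A3 had 23 fragments in each 5637 sh-LNMAT1 library and 4 or 5 in the others. Without a filter COL9A3 passed, with a log2 difference of 0.27 (standard error 0.05, limma adjusted p = 0.04957).

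The type IV chains of the widespread basement membrane network, COL4A1 and COL4A2, were both higher in 5637. COL4A2 was 8.21, 7.57 and 4.01 FPKM in UM-UC-3, 7.58 FPKM in the library labelled 5637 sh-NC, but 120 and 59.5 FPKM in the 5637 sh-LNMAT1 libraries. The log2 difference was 3.82 (standard error 0.44, limma adjusted p = 0.002278). COL4A1 was 2.45, 4.90 and 5.01 FPKM in UM-UC-3 in that order, 3.34 FPKM in the library labelled 5637 sh-NC, but 50.7 and 38.1 FPKM in the 5637 sh-LNMAT1 libraries. Its log2 difference was 3.03 (standard error 0.22, limma adjusted p = 0.0005286). The rows of COL4A1 and COL4A2 share 1338 bases, chr13:110305812-110307149 on opposite strands, and the strand setting of the counting is not given in the sources used here, so fragments there may belong to either gene.

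COL4A5 and COL4A6, the pair found in smooth muscle and epithelial basement membranes, were also both higher in 5637. COL4A5 was 2.31, 2.97 and 2.69 FPKM in UM-UC-3, 3.01 FPKM in the library labelled 5637 sh-NC, but 15.6 and 16.5 FPKM in the 5637 sh-LNMAT1 libraries, a log2 difference of 2.32 (standard error 0.19, limma adjusted p = 0.000776). COL4A6 was 0.840, 1.46 and 0.671 FPKM, then 1.15 FPKM, and 14.4 and 11.1 FPKM in the same order. Its log2 difference was 3.12 (standard error 0.32), with a limma adjusted p of 0.001486. Without 5637 sh-LNMAT1#1 the call for COL4A6 was lost. Both pairs printed above thus moved together between the lines, while COL4A3 and COL4A4 of the remaining pair were too low to compare.

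**Figure D3:**
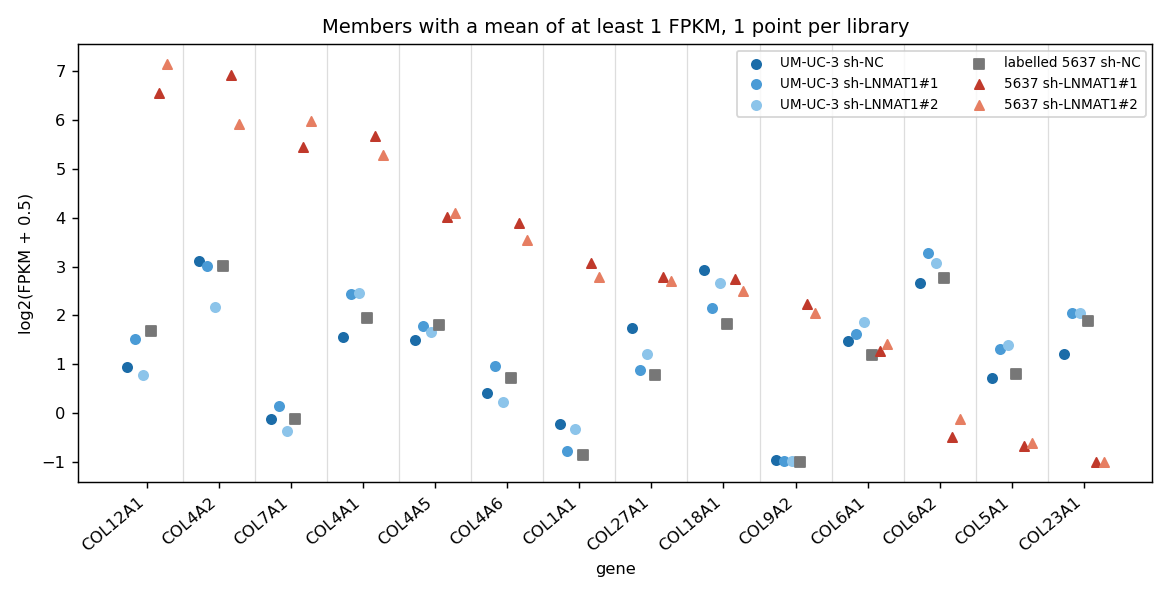
Level as log2(FPKM + 0.5) (vertical axis) of the 14 members with a mean of at least 1 FPKM (horizontal axis), 1 point per library; circles are UM-UC-3, the square is the library labelled 5637 sh-NC and triangles are 5637 with a sh-LNMAT1 hairpin. For COL12A1 the triangles stand at 92.6 and 140.7 FPKM and the other points at 1.23 to 2.69 FPKM, and for COL6A2 the triangles lie lowest, at 0.219 and 0.420 FPKM.

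Among the fibrillar chains the direction was mixed, with 2 members higher in 5637 and 1 lower. COL1A1, the major chain of type I collagen, was 7.92 and 6.37 FPKM in the 5637 sh-LNMAT1 libraries, from 2138 and 1602 fragments. In UM-UC-3 it was 0.356, 0.0899 and 0.295 FPKM, and the library labelled 5637 sh-NC had 0.0515 FPKM. The log2 difference was 3.47 (standard error 0.25, limma adjusted p = 0.0005138). COL1A2, whose product normally joins 2 COL1A1 chains, had 5 and 0 fragments in the same 5637 libraries. COL27A1, a cartilage-type fibrillar chain, was 6.42 and 5.996 FPKM in the 5637 sh-LNMAT1 libraries and 1.35 and 1.82 FPKM in the UM-UC-3 ones. The sh-NC libraries had 2.86 FPKM (UM-UC-3) and 1.21 FPKM (labelled 5637). The difference of 1.69 (standard error 0.22, limma adjusted p = 0.003569) no longer passed on leaving out 1 or the other of the 5637 sh-LNMAT1 libraries.

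COL5A1, a type V chain that nucleates fibrils, was lower in 5637. It was 1.15, 1.97 and 2.13 FPKM in UM-UC-3, 1.23 FPKM in the library labelled 5637 sh-NC, but 0.125 and 0.154 FPKM in the 5637 sh-LNMAT1 libraries, where 40 and 46 fragments were counted. The log2 difference was -2.00 (standard error 0.20, limma adjusted p = 0.001347), and the call was lost on leaving out 1 or the other of the UM-UC-3 sh-LNMAT1 libraries, as the gene then fell under the filter. COL5A2, its partner, was 0.328 to 0.682 FPKM in UM-UC-3 and 0.0913 to 0.120 FPKM in the 5637 sh-LNMAT1 libraries. It was tested only without a filter and passed there, with a log2 difference of -0.88 (standard error 0.15, limma adjusted p = 0.04341).

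The type VI chains parted. COL6A2 was 5.83, 9.25 and 7.87 FPKM in UM-UC-3, 6.26 FPKM in the library labelled 5637 sh-NC, but 0.219 and 0.420 FPKM in the 5637 sh-LNMAT1 libraries. The log2 difference was -3.47 (standard error 0.23, limma adjusted p = 0.0004047). COL6A1, its neighbor on chromosome 21, was 2.29, 2.56 and 3.14 FPKM, then 1.78 FPKM, and 1.91 and 2.16 FPKM in the same order. Its difference of -0.40 (standard error 0.21) did not pass, with a limma adjusted p of 0.1964. COL6A3, a further chain of the usual type VI monomer, had 26 to 36 fragments in UM-UC-3, 28 in the library labelled 5637 sh-NC and 6 in each 5637 sh-LNMAT1 library, at most 0.0603 FPKM. As a ratio of FPKM within a library, COL6A1 to COL6A2 was 0.277 to 0.399 in UM-UC-3, 0.284 in the library labelled 5637 sh-NC, and 8.69 and 5.15 in the 5637 sh-LNMAT1 libraries. On merged exon length, which counts overlapping exons once, these were 0.255 to 0.367, 0.262, and 7.997 and 4.74.

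COL23A1, a transmembrane collagen, had no fragment in either 5637 sh-LNMAT1 library. Its level was 1.83, 3.64 and 3.62 FPKM in UM-UC-3 with 3.18 FPKM in the library labelled 5637 sh-NC, from 214 to 394 fragments. Against the floor of 3 fragments per library it was at least 55.9-fold lower in the 5637 sh-LNMAT1 libraries, and limma gave an adjusted p of 0.0003581. COL18A1, a basement membrane multiplexin whose cleavage releases endostatin, did not pass between the lines. It was 7.08, 3.95 and 5.80 FPKM in UM-UC-3, 3.03 FPKM in the library labelled 5637 sh-NC, then 6.24 and 5.14 FPKM in the 5637 sh-LNMAT1 libraries, a log2 difference of 0.22 (standard error 0.26, limma adjusted p = 0.5339). The levels overlapped, and together with COL6A1 it was one of the 2 members tested that did not pass.

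**Figure D4:**
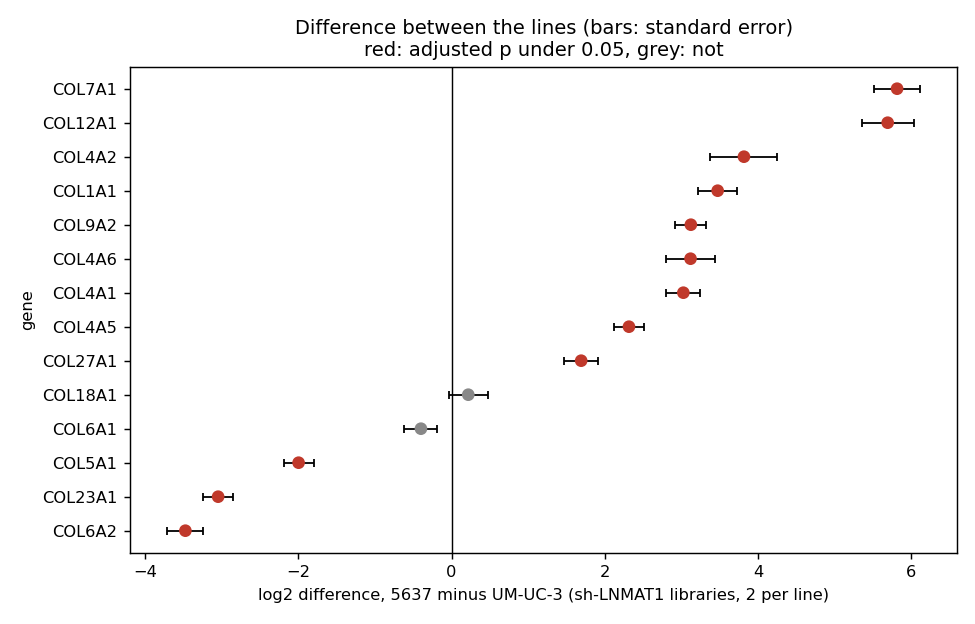
Log2 difference of 5637 minus UM-UC-3 (horizontal axis) for the 14 members tested (vertical axis), from limma on the 2 sh-LNMAT1 libraries of each line; bars are standard errors, red points have an adjusted p under 0.05 and grey points do not. The differences run from -3.47 for COL6A2 to 5.81 for COL7A1; the point for COL23A1 depends on the added 0.5 because the gene had no fragment in 5637.

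Genes that modify, process, cross-link or bind collagen were compared in the same test, from 6 lists with 57 genes. Of the 36 tested, 14 were higher in 5637 and 10 lower, where 20.1% of all genes tested were higher and 18.4% lower (38.5% together). Of the 36, SERPINH1, TLL1, LOX, LOXL4, THBS1 and NID1 passed the filter only through 5637 and DDR2 and SPARC only through UM-UC-3, and these 8 had therefore to differ. SERPINH1, which encodes the collagen chaperone HSP47, was 15.3 and 19.6 FPKM in the 5637 sh-LNMAT1 libraries and at most 0.0155 FPKM in the other 4, a log2 difference of 5.13 (standard error 0.22, limma adjusted p = 0.0001796). It was the 1 gene that passed among the 6 tested for folding, glycosylation and export. Of 12 genes tested for prolyl and lysyl hydroxylases and their partner proteins, 3 were higher and 5 lower. The log2 differences were 1.69 for P3H3, 1.56 for P3H4 and -1.50 for P3H2.

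The cross-linking enzymes differed in both directions. Of the lysyl oxidases, LOX was 4.82 and 6.43 FPKM in the 5637 sh-LNMAT1 libraries and 0.203 to 0.327 FPKM in UM-UC-3, and LOXL4 was 5.68 and 10.3 FPKM against at most 0.0492 FPKM. LOXL2 went the other way, at 11.5 and 9.97 FPKM against 77.5 to 99.2 FPKM in UM-UC-3. All 3 lysyl oxidases tested passed, with log2 differences of 3.04, 3.93 and -2.92. Among 4 procollagen proteinase and enhancer genes tested, TLL1 (log2 difference 2.40) and BMP1 (0.87), both proteinases, were higher in 5637 and the enhancer PCOLCE2 was lower (-2.18).

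The 2 discoidin domain receptors for collagen were higher in opposite lines. DDR1, the epithelial one, was 12.5 and 12.4 FPKM in the 5637 sh-LNMAT1 libraries and 1.34 to 1.84 FPKM in UM-UC-3, while DDR2 was 0.0717 and 0.0642 FPKM against 4.84 to 7.49 FPKM. Of 5 collagen receptors tested, 2 were higher and 2 lower, and the integrin chain ITGA2 had a log2 difference of 3.05. Of 6 collagen-binding matrix genes tested, 4 were higher and 1 lower. THBS1 (log2 difference 6.36) and FN1 (5.67) were higher in 5637, and SPARC, a collagen-binding glycoprotein, was 0.0722 and 0.0634 FPKM there against 25.8 to 42.4 FPKM in UM-UC-3, a log2 difference of -5.89.

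For each gene in which the means of the 3 UM-UC-3 and the 2 5637 sh-LNMAT1 libraries differed at least 2-fold, the library labelled 5637 sh-NC was assigned to the nearer mean. It was nearer UM-UC-3 in 95.9% of 3851 such genes and in 12 of the 12 members among them. For COL7A1 its distance on the log2 scale was 0.00 from the UM-UC-3 mean and 5.82 from the 5637 mean. The widest departure from UM-UC-3 was that of COL12A1, at 0.59, against 5.17 from 5637. Across the 43 members, which are not independent replicates, its r was 0.993 with UM-UC-3 sh-LNMAT1#1, 0.963 with UM-UC-3 sh-NC and 0.648 with either 5637 sh-LNMAT1 library. COL27A1 and COL18A1, at 1.21 and 3.03 FPKM there, were 1.35 and 3.95 FPKM in UM-UC-3 sh-LNMAT1#1 but 2.86 and 7.08 FPKM in the UM-UC-3 control.

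To ask whether silencing LNMAT1 changed the collagens within UM-UC-3, each hairpin was set against sh-NC. With 1 library per construct there is no replicate check and no test. A gene was counted when it differed at least 2-fold from sh-NC in the same direction with both hairpins, which held for 1.44% of the 12025 genes kept, 1.08% higher and 0.358% lower. It held for 0 of the 10 members kept. With both hairpins 6 of the 10 were higher, 3 lower and 1 in opposite directions. On the log2(FPKM + 0.5) scale each difference was under 2-fold. As plain ratios of FPKM, COL4A1 was 1.997- and 2.04-fold higher, COL4A2 with sh-LNMAT1#2 was 2.05-fold lower and COL27A1 with sh-LNMAT1#1 was 2.11-fold lower. The median of the mean log2 differences was 0.25 over the 10 members and 0.00 over all genes kept.

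COL4A1 showed the largest difference with both hairpins, with log2 differences of 0.87 and 0.90 for sh-LNMAT1#1 and sh-LNMAT1#2. COL23A1 had 0.83 and 0.82 and COL5A1 0.58 and 0.67. COL6A2 had 0.62 and 0.40, COL6A1 0.14 and 0.39 and COL4A5 0.30 and 0.18. The lower members were COL27A1, with -0.86 and -0.53, and COL18A1, with -0.77 and -0.27. COL4A2 had -0.11 with sh-LNMAT1#1 and -0.95 with sh-LNMAT1#2, and the hairpins disagreed for COL12A1, with 0.57 and -0.16.

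COL4A1 and COL4A2, the pair whose stretch between RefSeq starts is printed above, lay on opposite sides of sh-NC in UM-UC-3, for COL4A2 by only -0.11 with sh-LNMAT1#1. The ratio of COL4A1 to COL4A2 FPKM was 0.299 in sh-NC, 0.647 with sh-LNMAT1#1 and 1.25 with sh-LNMAT1#2. For the library labelled 5637 sh-NC it was 0.440, and for the 5637 sh-LNMAT1 libraries 0.423 and 0.639. UM-UC-3 sh-LNMAT1#2 was the 1 library of the 6 in which COL4A1 had the higher FPKM of the pair. On merged exon length the ratio was 1.43 there and 0.341 to 0.738 in the other 5. This conversion takes FPKM as divided by the sum of all distinct exons. The length found from the values did not match that sum, at 18004 against 21626 bases for COL4A1 and 29478 against 24844 for COL4A2. Which chain was higher in that library was therefore not settled.

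**Figure D5:**
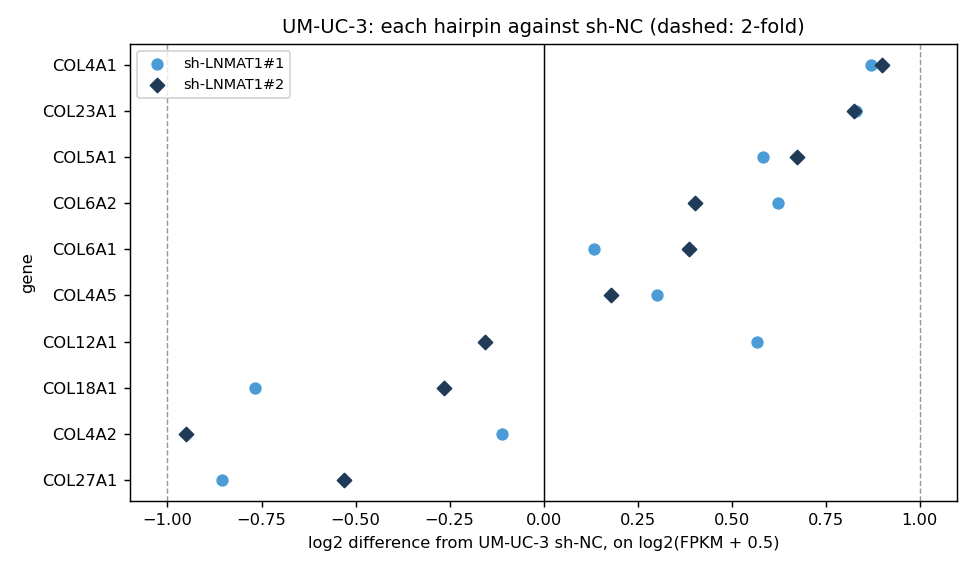
Log2 difference from UM-UC-3 sh-NC (horizontal axis, on log2(FPKM + 0.5)) for the 10 members kept in UM-UC-3 (vertical axis); circles are sh-LNMAT1#1, diamonds sh-LNMAT1#2, 1 library each, and dashed lines mark 2-fold. All points lie within 2-fold, from -0.95 for COL4A2 with sh-LNMAT1#2 to 0.90 for COL4A1 with the same hairpin.

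Of the 57 collagen-related genes, 32 were kept in UM-UC-3. The 2-fold criterion held for 1 of them, ADAMTS14, which encodes a procollagen amino-proteinase. ADAMTS14 was 4.03 FPKM in sh-NC, 0.945 with sh-LNMAT1#1 and 1.55 with sh-LNMAT1#2, log2 differences of -1.65 and -1.14. Its level in the library labelled 5637 sh-NC was 0.831 FPKM.

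Between the hairpins of one line, 9.07% of genes differed at least 2-fold in UM-UC-3 and 2.17% in 5637. None of the 11 members kept in UM-UC-3 did, and in 5637 1 of 11 did. That was COL4A2, with a log2 difference of -1.001 for sh-LNMAT1#2 minus sh-LNMAT1#1, right at the threshold. COL4A1 differed by -0.41 between the same libraries, COL12A1 by 0.60 and COL7A1 by 0.54.

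Taken as labelled, the 5637 comparison met the 2-fold criterion with both hairpins in 30.7% of 12791 genes, 18.5% higher and 12.3% lower. Of the 13 members kept, 9 were higher, 2 lower and 2 within 2-fold. COL7A1, COL9A2 and COL1A1 passed the filter only through the sh-LNMAT1 libraries, and COL6A2 and COL23A1 only through the library labelled 5637 sh-NC. These had therefore to differ. COL7A1 had log2 differences of 5.55 and 6.09 from the library labelled 5637 sh-NC, and COL12A1 4.86 and 5.47. COL6A2 had -3.23 and -2.88. COL5A1 was not kept in this comparison. Without the library labelled 5637 sh-NC this comparison has no control, so no value can be given without it.

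Pooled over both lines, the 4 sh-LNMAT1 libraries were compared with the 2 sh-NC libraries by limma, with a term for the line. None of the 12717 genes tested passed (0.0%), while 811, or 6.38%, had an unadjusted p under 0.05. Of the 14 members tested 0 passed, and 3 had an unadjusted p under 0.05. Without UM-UC-3 sh-NC the library labelled 5637 sh-NC is the only control, and the values are those of the 5637 comparison as labelled. The median log2 difference was then 2.62 over the 14 members tested and -0.01 over the 12822 genes tested. COL7A1, COL9A2 and COL1A1 passed the filter there only through the 5637 sh-LNMAT1 libraries. COL6A2, COL23A1 and COL5A1 passed only through the other libraries, so the filter favored a difference for all of these. In the fit of all 6 libraries, COL12A1 was the largest of the 3 members with an unadjusted p under 0.05. Its log2 difference there was 2.69 (standard error 1.07, limma adjusted p = 0.5694). COL4A1 had 2.21 (standard error 0.59) and COL4A5 1.24 (standard error 0.46), with the same adjusted p from limma. Without the library labelled 5637 sh-NC, UM-UC-3 sh-NC is the only control and the values are those of the UM-UC-3 comparison, with log2 differences of 0.21 for COL12A1, 0.89 for COL4A1 and 0.24 for COL4A5. COL7A1 went from 2.92 to 0.01 on leaving that library out.

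Whether the difference from sh-NC itself differed between the lines was tested with limma's interaction term. It passed for 18.8% of the 12717 genes tested, 9.99% with a positive difference (5637 minus UM-UC-3) and 8.79% with a negative one, and for 9 members positive and 3 negative of 14. COL6A1 and COL18A1 did not pass, so the members that passed were those called between the lines. The control of 5637 in this test is the library labelled 5637 sh-NC alone.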

How the data were processed

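Total RNA (TRIzol, then RNeasy columns) of 6 stably transduced cell line cultures was made into stranded mRNA libraries (TruSeq). The authors deposited FPKM per gene, and the submitters' processing notes name HISAT2 and hg38. The counting program, annotation and versions are not given in the sources used here. Of 50869 rows, 1 had no values and was dropped. Of the members, 43 were found in GENCODE release 29 (GRCh38), 34 of them at the identical position. FPKM times depth and length gave whole fragments (tolerance 0.02) in at least 99.94% of single-exon values. For 34 members whole fragments (tolerance 0.01) were found with a length within 10% of the sum of all distinct annotated exons, and for 23 members with exactly that sum. Overlapping exons thus enter more than once, and this sum was 1.0 to 2.39 times the merged exon length. It lowers FPKM unevenly between genes and cancels within a gene.

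Tools were limma 3.58.1 in R 4.3.3, and numpy 2.4.6, pandas 2.3.3 and matplotlib 3.10.9 in Python 3.11.15. Values were taken as log2(FPKM + 0.5), which understates differences of low genes, over genes whose mean in the libraries compared reached 1 FPKM. limma (lmFit, eBayes with a trend) was run for the lines (2 residual degrees of freedom), the pooled knockdown (3) and the interaction of line and knockdown (2). Benjamini-Hochberg adjustment was used, at 0.05. The code was also run on simulated data with 200 changed genes. Only large changes were planted there, so that run does not measure error for smaller ones. Members with a mean of at least 1 FPKM are named with all values, and up to 3 genes per collagen-related list by size among those called. Members and lists were chosen with earlier results of these data known. Alternatives were pseudocounts of 0.1 and 1, no filter and 5 FPKM, 75th-percentile scaling, no trend, no line covariate, a hairpin block, 1.5-fold, each hairpin alone, added sh-NC libraries and leaving out each library.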

Additional observations from a re-analysis of the deposited data

Results flagged for a closer look

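The difference from sh-NC was compared between the lines by limma's interaction test, which uses the library labelled 5637 sh-NC as the only control of 5637 and takes its spread from the 2 hairpins. Of all genes tested 18.8% passed, and so did 12 of the 14 members, 9 with a positive and 3 with a negative difference (5637 minus UM-UC-3). They were the same 12 members as those called between the lines. COL7A1, COL1A1 and COL9A2 reached 1 FPKM only in the 5637 sh-LNMAT1 libraries, and COL6A2, COL23A1 and COL5A1 fell under it only there. The filter thus favored a difference for these genes, and the count is a description. The log2 differences were 5.81 for COL7A1, 4.96 for COL12A1, 4.11 for COL1A1, 3.92 for COL4A2, 3.18 for COL9A2, 2.82 for COL4A6, 2.66 for COL27A1, 2.65 for COL4A1 and 1.99 for COL4A5. They were -3.71 for COL23A1, -3.57 for COL6A2 and -2.07 for COL5A1. Limma's adjusted p lay between 0.003702 for COL7A1 and 0.02603 for COL4A6. COL18A1 lay below sh-NC in UM-UC-3 and above it in 5637 for either hairpin, and its difference of 1.32 did not pass (standard error 0.45, limma adjusted p = 0.09724). Among the members kept in both lines, opposite directions with both hairpins were also seen for COL23A1, COL27A1, COL4A2 and COL6A2. COL5A1 and COL1A1, each kept in 1 line only, also lay on opposite sides of sh-NC. Without a filter on low values the test called 6 members positive and 3 negative, and COL12A1, COL4A2 and COL4A6 did not pass. No value can be given without the library labelled 5637 sh-NC, and a difference between the lines in response cannot be told apart from a departure of that library.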

How the results depend on the processing

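Of the 12 members called between the lines, 12 were called with either other pseudocount, 75th-percentile scaling, no trend, UM-UC-3 sh-NC added, or the hairpin number as a replicate block (9 higher and 3 lower). The labels do not say that a hairpin number marks a shared culture. With both sh-NC libraries added, 1 gene was higher, 1 lower and 0 members either way. By limma 1728 of 12717 genes and 7 of 14 members had an unadjusted p under 0.05 there, and COL18A1 turned to -0.22. A filter at 5 FPKM left 1125 genes higher and 1200 lower with 0 members lower. Leaving out a library gave 754 to 3123 genes higher, 438 to 2450 lower, 7 to 9 members higher and 2 to 3 lower, with COL18A1 from -0.032 to 0.47. The lone library of a line is then assumed to vary like the others.

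At 5 FPKM the interaction passed for 417 genes positive, 466 negative, 5 members positive and 0 negative, and 5 members and 1639 genes were nearer UM-UC-3. The pooled knockdown gave 0 to 2114 genes higher, 0 to 1911 lower, and 0 to 9 and 0 to 3 members on leaving out a library, the highest without UM-UC-3 sh-NC. The log2 difference ranged from -0.32 to 3.79 for COL1A1, -0.53 to 3.39 for COL4A2, -1.44 to 0.63 for COL5A1, -3.05 to 0.51 for COL6A2, -0.033 to 3.14 for COL9A2, -0.52 to 0.80 for COL18A1, -2.88 to 0.83 for COL23A1 and -0.69 to 1.97 for COL27A1, the end opposite in sign to the main value coming without the library labelled 5637 sh-NC. COL18A1 was also -0.0058 without 5637 sh-LNMAT1#1.

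In UM-UC-3, genes at least 2-fold higher numbered 203 with a pseudocount of 0.1. A pseudocount of 1 gave 80 higher and 28 lower, and at 5 FPKM 69 and 18. At 1.5-fold 528 and 289 genes passed, and 2 members higher. Hairpin #1 by itself gave 667 higher and 638 lower, and hairpin #2 by itself 253 and 169. Under the label 5637, 2367 were lower without a filter, 1120 higher and 779 lower at 5 FPKM with 0 members lower, and 3578 higher and 2874 lower at 1.5-fold. The cause of these changes was not tested, beyond fewer genes at the higher filter. With 1 library per construct and line, no alternative replaces a replicate, and members on a few fragments could not be compared at this depth.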
